A study of Homo sapiens with 8 samples.

Results

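The genes described here are 10 sensors, chaperones and folding factors of the endoplasmic reticulum (ER): EIF2AK3, ERN1, ATF6, XBP1, HSPA5, HSP90B1, DNAJB9, CALR, PDIA4 and HERPUD1. They were chosen by gene symbol, each symbol names 1 row, and they are 10 of the 47591 genes in the table. All 10 passed the filter on low values, which asked for a mean of 10 or more across the 8 libraries, as did 18947 genes in all. The choice was made with results of these same data known, so the values of the 10 genes are given as a description, without p-values.

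RNA-seq of polyadenylated RNA was performed on SH-SY5Y cells, a human neuroblastoma line with adrenergic, neuron-like features. The G2 line (3 libraries) carries a CRISPR/Cas9 edit of PRPF40B, a splicing factor gene. The scramble line, SCR (3 libraries), went through the same editing with a control guide, and WT cells (2 libraries) were not edited. The G2 and SCR lines were grown with puromycin and, per the methods, edited cells were cloned by limiting dilution. The silencing was therefore seen in 1 line, and the effect of the edit, of cloning and of puromycin in G2 against WT cannot be told apart. In G2 against SCR, the effect of the edit cannot be told apart from other differences between these lines, such as those from cloning. Libraries are labelled as biological replicates of each line.

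The ER folds secreted and membrane proteins with the help of chaperones and disulphide isomerases. When unfolded proteins build up, the unfolded protein response is started by sensors in the ER membrane. PERK, encoded by EIF2AK3, slows translation by phosphorylating eIF2alpha. IRE1, encoded by ERN1, splices the XBP1 mRNA in the cytoplasm, and ATF6 is cut in the Golgi to release a transcription factor. Their targets include the chaperone BiP (HSPA5) and genes of ER-associated degradation (ERAD), and many of these promoters carry ER stress elements.

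ER stress elements were searched in the RefSeq promoter windows (GRCh38.p14, 250 bases before to 50 after the start, both strands, exact matches). The motifs were ERSE, which is CCAAT, then 9 bases, then CCACG, and ERSE-II, which is ATTGG, 1 base and CCACG, together with the UPR element core TGACGTGG. No 2 of the matches in the 10 genes overlap. The 10 genes have 12 windows, of which 4 held an ERSE and 1 an ERSE-II. Among all 35116 windows, 0.0769% held an ERSE, 0.0541% an ERSE-II and 0.729% the UPR element core. The ERSE matches lay in HSPA5, HSP90B1, CALR and XBP1, and the ERSE-II match lay in HERPUD1. No match was found in the windows of EIF2AK3, ERN1, ATF6, DNAJB9 and PDIA4, which says only that these letters are not there. The elements are printed because they are the sequences that set these 5 genes apart from the other 5. Each is given on its own motif strand, and its position is counted from the start site, with -1 as the last base before it.
HSPA5 ERSE, positions -66 to -48: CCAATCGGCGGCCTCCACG
XBP1 ERSE, positions -52 to -34: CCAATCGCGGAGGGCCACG
HSP90B1 ERSE, positions -194 to -176: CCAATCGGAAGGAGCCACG
HSP90B1 second ERSE, on the opposite strand, positions -89 to -71: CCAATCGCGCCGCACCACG
CALR ERSE, on the opposite strand, positions -225 to -207: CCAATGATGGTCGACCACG
HERPUD1 ERSE-II, positions -117 to -107: ATTGGGCCACG

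Beside these, the 250 bases upstream of HSPA5, which holds an ERSE, and of EIF2AK3 and PDIA4, whose levels differed most between G2 and the controls, are printed from RefSeq on the minus strand, 5′ to 3′, each from its window nearest to the 5′ end of the gene in the table. Capitals mark the ERSE, and the other 2 hold no exact match.
HSPA5, chr9:125241344-125241593: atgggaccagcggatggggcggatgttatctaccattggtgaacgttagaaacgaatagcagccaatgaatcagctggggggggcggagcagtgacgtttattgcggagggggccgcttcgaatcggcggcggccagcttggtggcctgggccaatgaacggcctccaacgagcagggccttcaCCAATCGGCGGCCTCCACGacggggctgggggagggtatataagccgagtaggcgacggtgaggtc
EIF2AK3, chr2:88627465-88627714: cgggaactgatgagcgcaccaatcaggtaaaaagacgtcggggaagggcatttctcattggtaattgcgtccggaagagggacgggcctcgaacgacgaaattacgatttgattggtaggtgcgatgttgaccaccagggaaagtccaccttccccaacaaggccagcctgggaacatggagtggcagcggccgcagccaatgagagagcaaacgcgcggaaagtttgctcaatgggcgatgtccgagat
PDIA4, chr7:149028491-149028740: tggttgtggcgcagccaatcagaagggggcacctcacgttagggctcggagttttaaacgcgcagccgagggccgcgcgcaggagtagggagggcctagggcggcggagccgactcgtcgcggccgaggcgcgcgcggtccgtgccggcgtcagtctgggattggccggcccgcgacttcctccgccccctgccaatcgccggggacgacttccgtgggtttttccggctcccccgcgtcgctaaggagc

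Values are DESeq2 normalized counts, that is a gene's read count divided by a size factor of its library, and they are not scaled to gene length. Recovered counts totalled 59804395 to 81080747 per library. These are not numbers of read pairs. Of small recovered counts, 71.3% to 75.6% per library were multiples of 3, so about 3 counts were taken per read pair. The targeted gene, PRPF40B, had 840.2, 841 and 918 normalized counts in G2, 1669 to 1686 in SCR and 1668 and 1972 in WT. G2 lay below all 5 controls by -0.998 on the log2 scale (two-sided exact permutation test, p = 0.0179, the smallest that 56 groupings allow). Genes whose symbol or description names ribosomal RNA took 0.410% to 0.612% of counts in G2 and SCR but 4.99% and 4.78% in WT. This search does not separate nuclear from mitochondrial ribosomal RNA, nor either from genes described by its processing. Of 10 sympathetic neuroblastoma markers, 7 were called lower and 0 higher in each G2 comparison, and their summed level was 262942 to 265895 in G2, 361049 to 369455 in SCR and 328878 to 342391 in WT. A mean of at least 100 in every line was seen for 9 of them, while TH, which defines catecholamine cells, had a mean of 1.88 in G2, 14.0 in SCR and 16.9 in WT. Of 11 tested mesenchymal markers, 10 were called higher in G2 in each G2 comparison, where 15.1% and 17.7% of all genes were called higher. The summed mesenchymal level was 326765 to 329380 in G2, 116956 to 124361 in SCR and 81745 to 93885 in WT. In SCR/WT 5 of these markers were called higher and 0 lower, where 10.7% of all genes were called higher. From high to low, this summed level ran G2, SCR, WT. Most of the 10 genes were highest in G2, and in 7 of them all SCR libraries lay below both WT libraries. The median SCR/WT difference of the 10 genes was -0.29 on the log2 scale, where that of all genes was 0.01. With all libraries scaled to the same total these medians were -0.02 and 0.29. FN1, a defining mesenchymal gene, was below 10 everywhere. Summed blood markers were 666 to 735 in G2 and 58.2 to 100.3 in the controls, almost all of it CD68, with PTPRC and CD3E below 10, and summed endothelial markers were at most 59.3 with PECAM1 at 0. The part of these shifts in the ER results was not tested, and in bulk RNA fewer cells of a type and less RNA per cell cannot be told apart.

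A gene was called between 2 lines when it differed at least 1.5-fold with an unadjusted p of at most 0.05 in a limma fit of log2(normalized count + 1) over all 8 libraries. In G2/SCR 6 of the 10 genes were called higher and 0 lower. Of all genes tested 26.9% were called in that comparison and 15.1% were called higher. In G2/WT 3 were called higher and 0 lower, where 29.9% of all genes were called and 17.7% were called higher. In SCR/WT 2 were called lower and 0 higher, against 16.3% of all genes called and 5.63% called lower. EIF2AK3 and PDIA4 were called higher in both G2 comparisons and not in SCR/WT, a pattern held by 13.8% of all genes tested in either direction. These calls come from the contrasts that were known when the genes were chosen, so nothing is read from the counts. G2/SCR and G2/WT share the G2 libraries, and SCR/WT shares its controls with both.

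In 8 of the 10 genes all 3 G2 libraries lay above all 5 control libraries, in DNAJB9 they lay below, and in HERPUD1 the groups overlapped. Of all genes tested 42.5% had G2 outside the range of the controls. The 3 SCR libraries lay below both WT libraries in 7 of the 10 genes and above both in 1, ERN1, and 27.8% of all genes tested had SCR below WT. Summed over the 10 genes, the level made up 0.376% to 0.399% of each G2 library, 0.208% to 0.213% of each SCR library and 0.250% to 0.262% of each WT library.

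**Figure D1:**
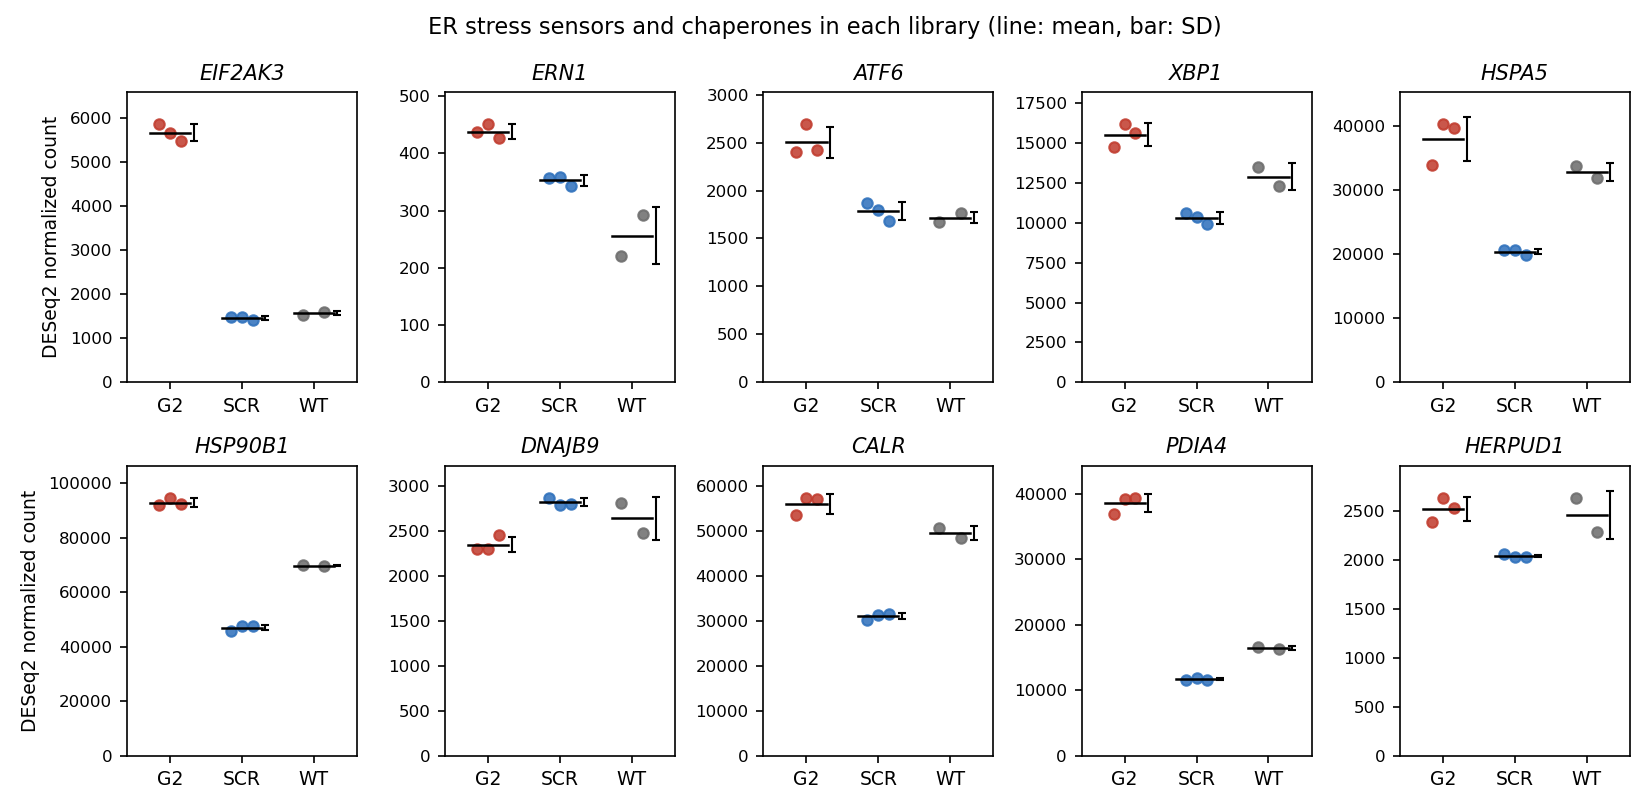
Normalized counts (y axis, from 0) of the 10 genes in each library of the G2 (red), SCR (blue) and WT (grey) lines. Points are libraries, black lines are means and bars are SDs (n = 3, 3 and 2), and EIF2AK3 and PDIA4 show the widest gap between G2 and both controls while HSPA5 and CALR in WT lie close to G2.

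Among the sensors, EIF2AK3, which encodes PERK, differed most. Its gene lies on chromosome 2 from 88556741 to 88627576 (hg38, minus strand). It had 5848, 5650.1 and 5477 normalized counts in G2, against 1481, 1485 and 1409 in SCR and 1531 and 1598 in WT. The G2 libraries lay far above both controls, which lay close to each other. Means ± SD, given this way from here on over 3, 3 and 2 libraries, were 5658 ± 185 in G2, 1458 ± 42.8 in SCR and 1565 ± 47.8 in WT. This is 3.88-fold higher in G2/SCR and 3.61-fold higher in G2/WT, log2 differences of 1.96 (SE 0.06) and 1.85 (SE 0.07). The first lay at the 95.8th percentile of all log2 differences in G2/SCR and the second at the 94.0th in G2/WT. SCR and WT differed by -0.10 (SE 0.07), with the sign turned to 0.17 when all libraries were scaled to the same total.

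The long noncoding gene EIF2AK3-DT starts on the other strand next to EIF2AK3. It had means of 51.1 ± 11.7 in G2, 58.4 ± 6.40 in SCR and 36.9 ± 22.3 in WT and was not called in any comparison (limma, Benjamini-Hochberg adjusted p = 0.631 in G2/SCR and 0.210 in G2/WT). Neighbours within 1 Mb on either side were taken only with a mean of at least 100, which leaves out EIF2AK3-DT. The 8 such neighbours of EIF2AK3 had a median log2 difference of 0.46 in G2/SCR, with 4 called higher and 1 lower. Of all genes tested 15.1% were called higher and 11.8% lower there. In G2/WT the median of these neighbours was 0.74, with 4 called higher and 0 lower, where 17.7% of all genes were called higher. In SCR/WT it was 0.28, with 3 called higher and 0 lower, where 10.7% of all genes were called higher. Whether copy number or a shared local change takes part in these values was not tested.

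ERN1, which encodes IRE1, was the lowest expressed of the 10 genes. It had 438, 451 and 427 normalized counts in G2, 357, 359 and 342 in SCR, and 221 and 292 in WT. The lines ran in the order G2, SCR, WT with no overlap. The mean in G2 was 438 ± 12.3, in SCR 353 ± 9.28 and in WT 256 ± 50.1, which gave log2 differences of 0.31 (SE 0.11) in G2/SCR, 0.78 (SE 0.13) in G2/WT and 0.47 (SE 0.13) in SCR/WT. The second was called. It rests on WT replicate 1, since without that library it was 0.58 and lost its call. Without WT replicate 2 the SCR/WT difference was 0.67 and was called. At about 3 recovered counts per read pair, ERN1 had 59.3 to 155 read pairs per library, so counting error alone is 8.03% to 13.0% of a value.

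ATF6 encodes the sensor that is cut in the Golgi. It had 2402, 2693 and 2424 normalized counts in G2, against 1875, 1792 and 1688 in SCR and 1675 and 1761 in WT. G2 lay above both controls, which overlapped. It was 1.40-fold higher in G2/SCR (log2 difference 0.49, SE 0.07) and 1.46-fold higher in G2/WT (0.54, SE 0.08), just under the 1.5-fold limit in both, and SCR/WT was 0.05 (SE 0.08). Its relative ATF6B, from the list of signalling partners, was called higher in both, with 4264, 2679 and 2710 mean normalized counts in G2, SCR and WT.

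XBP1 encodes the transcription factor whose mRNA IRE1 splices. It had 14779.8, 16196 and 15672 normalized counts in G2, 10601, 10392 and 9902 in SCR, and 13495 and 12296 in WT. WT lay between the edited lines with no overlap. The log2 difference was 0.59 (SE 0.06, 1.51-fold) in G2/SCR, the smallest of the 6 called, with ATF6 next below the limit at 1.40-fold, and 0.27 (SE 0.06) in G2/WT and -0.32 (SE 0.06) in SCR/WT. The G2/SCR call of XBP1 was lost without G2 replicate 2 (0.56) and without SCR replicate 3 (0.57), with the library name number as a block (0.58) and with all libraries scaled to the same total (0.50). Counts per gene do not separate spliced from unspliced XBP1 mRNA, so IRE1 activity is not measured here.

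Among the chaperones, HSPA5, HSP90B1 and CALR were called higher in G2/SCR, but none of them was called in G2/WT. HSPA5 encodes BiP, the main Hsp70 of the ER. It had 33899, 40238 and 39639.6 normalized counts in G2, 20621, 20639 and 19869.8 in SCR, and 33765 and 31833 in WT. All G2 libraries lay above WT, although G2 replicate 1 and WT replicate 1 were close. The mean was 37926 ± 3500 in G2, 20377 ± 439 in SCR and 32799 ± 1367 in WT. G2 was 1.86-fold higher than SCR (log2 0.89, SE 0.07) and 1.15-fold higher than WT (0.21, SE 0.07). SCR was 1.61-fold lower than WT (-0.69, SE 0.07, called lower).

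CALR encodes calreticulin, a lectin chaperone that also binds calcium. It had 53609, 57462 and 57186 normalized counts in G2, 30314, 31258 and 31540.4 in SCR, and 50676 and 48451 in WT. The pattern was that of HSPA5, with WT close under G2 and SCR well below both. The log2 differences were 0.85 (SE 0.05) in G2/SCR, 0.18 (SE 0.05) in G2/WT and -0.68 (SE 0.05, 1.60-fold lower, called) in SCR/WT.

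HSP90B1 encodes GRP94, the Hsp90 of the ER, and was the most abundant of the 10 genes by normalized count. It had 91762, 94602 and 92129 normalized counts in G2, 45803, 47506 and 47671 in SCR, and 69861 and 69620.4 in WT. The lines were separate in the order G2, WT, SCR. G2 was 1.98-fold higher than SCR (log2 0.98, SE 0.04) and 1.33-fold higher than WT (0.41, SE 0.05). SCR was 1.48-fold lower than WT (-0.57, SE 0.05), just under the limit and not called.

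With all libraries scaled to the same total, the SCR/WT differences of HSPA5 and CALR were -0.41 and -0.40 and neither was called, and the G2/WT difference of HSP90B1 was 0.60 and was called. That scaling moved the median of all genes by -0.09 in G2/SCR, 0.19 in G2/WT and 0.28 in SCR/WT on the log2 scale. The higher share of all called genes went from 56.2% to 47.5% in G2/SCR, from 59.3% to 75.8% in G2/WT and from 65.6% to 90.6% in SCR/WT. Normalized totals were higher in WT than in the edited lines, and comparisons with WT depend on that choice more than G2/SCR does.

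DNAJB9, which encodes ERdj4, a BiP partner, was the only one of the 10 genes with G2 below both controls. It had 2299.6, 2297 and 2450.0 normalized counts in G2, 2869.8, 2784 and 2805 in SCR, and 2806 and 2472 in WT. The highest G2 library and the lower WT library were near each other. The log2 difference was -0.26 (SE 0.06) in G2/SCR and -0.17 (SE 0.07) in G2/WT, and neither was called. The second was 0.02 when all libraries were scaled to the same total. THAP5, which shares the start region of DNAJB9 on the other strand, had means of 4845, 5125 and 5139.6 in G2, SCR and WT and was not called (limma, Benjamini-Hochberg adjusted p = 0.352 in G2/SCR and 0.379 in G2/WT).

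PDIA4 encodes ERp72, a protein disulphide isomerase. Its gene lies on chromosome 7 from 149003051 to 149028690 (hg38, minus strand). It had 36941, 39232 and 39363 normalized counts in G2, 11622, 11885 and 11589.7 in SCR, and 16622 and 16262 in WT. G2 lay far above the controls, and WT lay above SCR. The mean was 38512 ± 1362 in G2, 11699 ± 162 in SCR and 16442 ± 255 in WT. G2 was 3.29-fold higher than SCR (log2 1.72, SE 0.05) and 2.34-fold higher than WT (1.23, SE 0.05), and SCR/WT was -0.49 (SE 0.05). Within 1 Mb of PDIA4 there were 20 other genes with a mean of at least 100. Their median log2 difference was 0.33 in G2/SCR, with 4 called higher and 0 lower, where 15.1% of all genes were called higher. In G2/WT the median was 0.53, with 9 called higher and 0 lower, where 17.7% of all genes were called higher. The part of the region in the level of PDIA4 was not tested. Around the other 8 genes the medians in G2/SCR ran from -0.14 to 0.16.

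HERPUD1 encodes a membrane protein of the ERAD complex. It had 2388, 2635 and 2525 normalized counts in G2, 2055, 2032 and 2034 in SCR, and 2629 and 2284 in WT. G2 and WT overlapped and SCR lay below both. The log2 difference was 0.30 (SE 0.07) in G2/SCR, 0.04 (SE 0.08) in G2/WT and -0.26 (SE 0.08) in SCR/WT, none of them called, and the last was 0.01 under the same total.

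**Figure D2:**
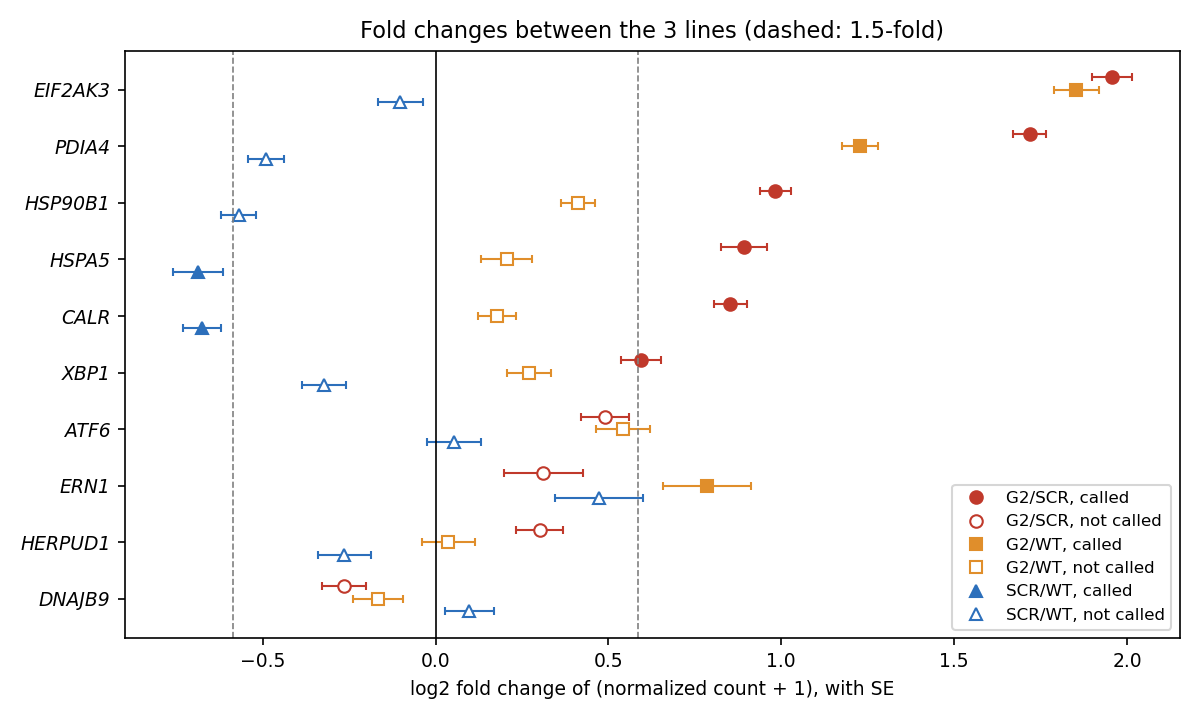
Log2 difference (x axis) of each of the 10 genes (y axis, ordered by G2/SCR) in G2/SCR (circles), G2/WT (squares) and SCR/WT (triangles), with SE. Filled symbols were called and dashed lines mark 1.5-fold: EIF2AK3 and PDIA4 lie beyond the right line in both G2 comparisons, and HSPA5 and CALR beyond the left line in SCR/WT.

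Set beside the promoters, the 4 genes with an exact ERSE in the window (HSPA5, HSP90B1, CALR and XBP1) had log2 differences of 0.59 to 0.98 in G2/SCR, 0.18 to 0.41 in G2/WT and -0.69 to -0.32 in SCR/WT. Of the genes with no exact match, EIF2AK3 and PDIA4 had larger differences in both G2 comparisons. ERN1 (0.31) and ATF6 (0.49) lay below the ERSE genes for G2/SCR, but above them for G2/WT (0.78 and 0.54). DNAJB9, also with no match, lay below them in both (-0.26 for G2/SCR, -0.17 for G2/WT). So did HERPUD1, which holds the ERSE-II (0.30 and 0.04). Whether the elements take part in these differences was not tested. Of the 163 other ER genes below, 136 had promoter windows, and the rest were not searched. Of their 178 windows, 3.93% held an ERSE, 1.12% an ERSE-II and 6.18% the UPR element core. Of the 5 genes with an ERSE (CANX, CRELD2, ERO1B, PDIA6 and SERP1), 2 were called higher in G2/SCR and lower in SCR/WT, namely CRELD2 and PDIA6. CANX, ERO1B and SERP1 had G2/SCR differences of 0.41, -0.02 and 0.05 and were not called. Of the 11 genes with the UPR element core, 6 were called higher in G2/SCR and 0 lower in SCR/WT. Of the 2 with an ERSE-II, HYOU1 and SDF2L1, HYOU1 was called higher in G2/SCR and SDF2L1 lower in SCR/WT. HYOU1 also holds the UPR element core. Of all genes tested, 15.1% were called higher in G2/SCR and 5.63% lower in SCR/WT.

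Levels of different genes were compared per kb of the Ensembl canonical transcript in GENCODE 44, since the exons of the table's annotation were not used here. In G2 the order was HSP90B1 (33368 normalized counts per kb), CALR (29503), PDIA4 (13918), HSPA5 (9672), XBP1 (8682), EIF2AK3 (1247), DNAJB9 (975), HERPUD1 (882), ATF6 (336) and ERN1 (55.5). HSPA5 and XBP1 overlapped over libraries in G2, at 8646 to 10262 and 8252 to 9043 per kb, and the other neighbours in this order did not. In SCR, PDIA4 stood lower, at 4228 per kb, below XBP1 (5749.9) and HSPA5 (5197), and EIF2AK3 at 321 per kb stood below DNAJB9 (1170.4) and HERPUD1 (715). In WT, PDIA4 at 5942 and EIF2AK3 at 345 per kb kept these places, and CALR (26072) stood above HSP90B1 (25069). Against both controls, G2 had PDIA4 above HSPA5 and XBP1, and EIF2AK3 above DNAJB9 and HERPUD1.

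The genes most like HSPA5 over the 8 libraries, by the root mean square difference of centred log2 values among 13065 genes with means of 100 or more, were CALR (0.05), ORAI1 (0.06), LGALS3BP (0.06), CRELD2 (0.06) and PHF19 (0.07). Their G2/SCR differences ran from 0.81 to 0.94 and their G2/WT differences from 0.15 to 0.26. The nearest to EIF2AK3 were PPP2R1B (0.05), FGFR1 (0.06), SCARB2 (0.08), SH3GLB1 (0.08) and OSBPL3 (0.09), none of them in the ER lists. The likeness is over 8 libraries of 3 lines and rests mostly on the differences between lines.

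The other genes of the pathway were taken from 6 lists of ER genes, which hold 163 genes, 157 of them tested. In G2/SCR 59 were called higher and 1 lower, 38.2% called in all against 26.9% of all genes, with a median log2 difference of 0.40, where the median of all genes tested was -0.01. In G2/WT 34 were called higher and 5 lower with a median of 0.21, and the 24.8% called lay below the 29.9% of all genes. In SCR/WT 1 was called higher and 12 lower with a median of -0.19, and 8.28% were called against 16.3% of all genes. The medians of all genes were 0.01 in both of these. Without WT replicate 2 the counts in SCR/WT were 3 higher and 19 lower, and without G2 replicate 3 the lower count in G2/WT was 8. With all libraries scaled to the same total, the median of the 157 genes was 0.31 in G2/SCR, 0.39 in G2/WT and 0.08 in SCR/WT, which is 0.42 and 0.20 above and, in SCR/WT, -0.20 from the median of all genes under that scaling. The counts were then 53 higher and 2 lower in G2/WT, and 5 higher and 1 lower in SCR/WT. The lists were written with earlier results of these data known, and these counts are a description of the lists. Most genes named below were picked by their differences in the same contrasts. The adjusted p-values beside them are therefore descriptive and add no separate support. They compare libraries of single lines.

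**Figure D3:**
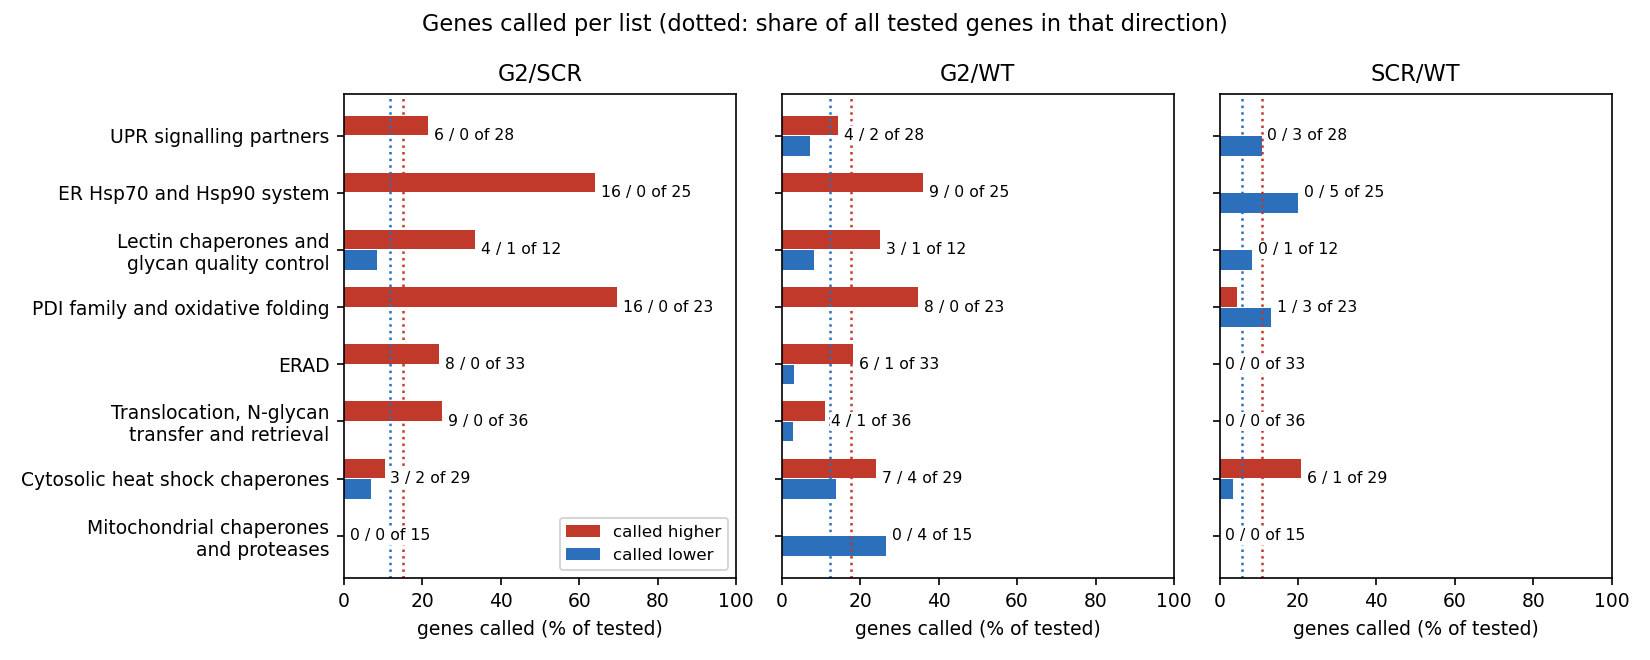
Share of tested genes called higher (red) and lower (blue) in each list (x axis, percent of tested genes) for G2/SCR, G2/WT and SCR/WT, with the counts as higher / lower of tested. Dotted lines show the share of all tested genes called in that direction, and the PDI family and the ER Hsp70 and Hsp90 system have the longest bars in G2/SCR.

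Of the list of signalling partners of the sensors, 6 of 28 tested genes were called higher and 0 lower in G2/SCR, with a median of 0.18, and in G2/WT 4 were called higher and 2 lower, with a median of 0.05. The share called was 21.4% in each, below the 26.9% and 29.9% of all genes. CREB3L2, a membrane-bound transcription factor related to ATF6, rose from 1157 ± 98.3 in SCR and 1123 ± 289 in WT to 2969 ± 346 in G2 (log2 1.36 and 1.42, limma, Benjamini-Hochberg adjusted p = 3.08e-06 and 5.64e-06). DNAJC3, an inhibitor of PERK also known as P58IPK, rose by 1.15 and 0.77, and DDIT3, which encodes the stress factor CHOP, by 0.81 and 0.64 in G2/SCR and G2/WT. The PERK target ATF4 and its target CHAC1 went another way and are named after their values were seen. ATF4 had means of 27759 in G2, 26669 in SCR and 42515 in WT, and CHAC1 had 499, 544 and 1069. Both were called lower in G2/WT and in SCR/WT, and neither was called in G2/SCR. The log2 differences in G2/WT and SCR/WT were -0.61 and -0.66 for ATF4 and -1.10 and -0.97 for CHAC1. Scaling all libraries to the same total raised the median of all genes by 0.19 and 0.28 in these comparisons. A shift of that size takes ATF4 under the 1.5-fold limit in both, but not CHAC1.

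Of the ER Hsp70 and Hsp90 system, 16 of 25 tested genes were called higher and 0 lower in G2/SCR, with a median of 0.79. In G2/WT 9 were called higher and 0 lower, with a median of 0.37. The shares called were 64% and 36%, against 26.9% and 29.9% of all genes. SERPINH1, the collagen chaperone HSP47, rose from 9499 ± 166 in SCR and 12814 ± 1542 in WT to 25814 ± 2791 in G2 (log2 1.44 and 1.01, limma, adjusted p = 2.81e-08 and 1.9e-06). PPIB, which encodes the prolyl isomerase cyclophilin B, rose by 1.17 and 0.61, and FKBP9 by 1.10 and 1.07. In SCR/WT 5 genes were called lower, DNAJB11, DNAJC1, SDF2L1, MANF and CRELD2, with log2 differences of -0.78 to -0.62, the range in which HSPA5 and CALR lay. The number called in this list in SCR/WT was 3 without WT replicate 1, 8 without WT replicate 2 and 2 with all libraries scaled to the same total.

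Of the PDI family and oxidative folding genes, 16 of 23 tested were called higher and 0 lower in G2/SCR, with a median of 0.72. In G2/WT 8 were called higher and 0 lower, with a median of 0.38. The shares called were 69.6% and 34.8%, against 26.9% and 29.9% of all genes. ERP44, which retains client proteins in the early secretory pathway, rose from 2300 ± 38.1 in SCR and 2440 ± 90.9 in WT to 6244 ± 170 in G2 (log2 1.44 and 1.36, limma, adjusted p = 8.77e-10 and 4.31e-09). PDIA5 rose by 1.24 and 0.67. GPX8, an ER glutathione peroxidase, had 214, 130.3 and 167 normalized counts in G2, 30.6, 40.4 and 37.0 in SCR, and 0 and 6.95 in WT, where it was at the counting floor and no fold is given. It was the 1 gene of the 6 lists called higher in SCR/WT. PDIA6, PRDX4 and PDIA2 were called lower in SCR/WT.

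Of the lectin chaperones and glycan quality control genes, 4 of 12 were called higher and 1 lower in G2/SCR, with a median of 0.44. In G2/WT 3 were called higher and 1 lower (CLGN), with a median of 0.36. The shares called were 41.7% and 33.3%, against 26.9% and 29.9% of all genes. UGGT2, a glucosyltransferase that senses misfolded glycoproteins, rose from 263 ± 23.5 in SCR and 260 ± 80.0 in WT to 998 ± 52.9 in G2 (log2 1.92 and 1.97, limma, adjusted p = 3.93e-07 and 9.33e-07). GANAB, a subunit of glucosidase II, rose by 0.92 and 0.61, and the cargo receptor LMAN1 by 0.81 and 0.77. CALR3, a testis relative of CALR, was the gene called lower in G2/SCR, with means of 8.37 in G2, 24.6 in SCR and 14.2 in WT, and its call was lost without G2 replicate 1, G2 replicate 2 or SCR replicate 3.

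Of the ERAD genes, 8 of 33 tested were called higher and 0 lower in G2/SCR, with a median of 0.26. In G2/WT 6 were called higher and 1 lower (UBE2G2), with a median of 0.17. The shares called were 24.2% and 21.2%, below the 26.9% and 29.9% of all genes. With all libraries scaled to the same total G2/SCR had 4 of the 33 called and G2/WT had 12, and leaving out G2 replicate 3 gave 11 in the latter. EDEM1, a mannosidase-like ERAD factor induced through XBP1, rose from 778 ± 36.5 in SCR and 631 ± 110 in WT to 2205 ± 51.7 in G2 (log2 1.5 and 1.81, limma, adjusted p = 5.68e-08 and 3.18e-08). ERLIN1 rose by 1.08 and 0.59. In SCR/WT 0 of the 33 were called, against 16.3% of all genes. Of the 33, 17 had an unadjusted p below 0.05 in limma, the tool used there, and 3 were called without WT replicate 2.

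Of the translocation, N-glycan transfer and retrieval genes, 9 of 36 were called higher and 0 lower in G2/SCR, with a median of 0.26. The share called there was 25%, against 26.9% of all genes. In G2/WT 4 were called higher and 1 lower (SEC11C), 13.9% in all against 29.9% of all genes, with a median of 0.03, and with all libraries scaled to the same total 9 were called. KDELR3, a receptor that returns KDEL proteins such as BiP to the ER, rose from 83.3 ± 5.27 in SCR and 93.3 ± 26.7 in WT to 579 ± 24.5 in G2 (log2 2.78 and 2.65, limma, adjusted p = 2.99e-08 and 1.37e-07). TRAM1 rose by 1.55 and 1.43 and SSR1 by 0.89 and 0.72. In SCR/WT 0 of the 36 were called, against 16.3% of all genes. Of the 36, 27 had an unadjusted p below 0.05 in limma and 1 was called without WT replicate 2.

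Chaperones of other compartments were set beside these. Of 29 tested cytosolic heat shock chaperones, 3 were called higher and 2 lower in G2/SCR, with a median of -0.11. This is 17.2% called, against 26.9% of all genes. In G2/WT 7 were called higher and 4 lower, 37.9% in all against 29.9% of all genes, with a median of -0.34. In SCR/WT 6 were called higher and 1 lower, 24.1% in all against 16.3% of all genes, with a median of -0.08. The stress-inducible Hsp70 genes HSPA1A and HSPA1B, whose near-identical sequences make their separate counts uncertain and which are named after their values were seen, were called higher in both comparisons with WT, with log2 differences of 1.10 and 1.16 in SCR/WT and 0.05 and 0.04 in G2/SCR. HSPB8, a small heat shock protein, rose from 92.6 ± 19.9 in SCR and 57.5 ± 8.27 in WT to 734 ± 54.1 in G2 (limma, adjusted p = 3.28e-08 and 1.68e-08), and HSPA4L fell by 1.21 and 0.60 on the log2 scale. Of 15 mitochondrial chaperones and proteases, 0 were called in G2/SCR, with a median of -0.18, by limma, DESeq2 and edgeR alike, while 10 had an unadjusted p below 0.05 in limma. In G2/WT 4 of them were called lower and 0 higher, 26.7% in all against 29.9% of all genes. The lists were not tested against each other.

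**Figure D4:**
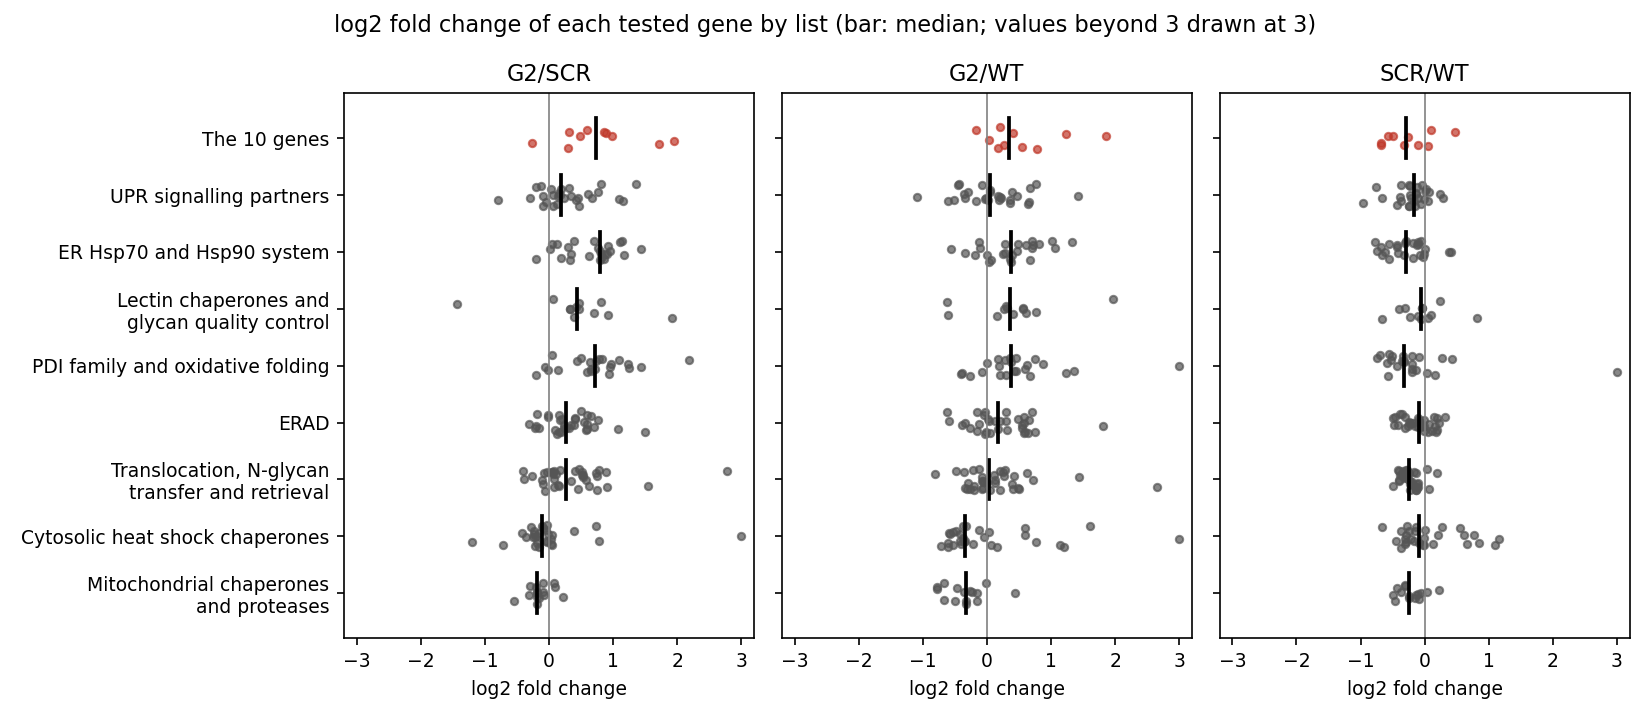
Log2 difference (x axis) of each tested gene by list (y axis) in G2/SCR, G2/WT and SCR/WT, with the 10 genes in red, other genes in grey and black bars at the medians. Values beyond 3, those of GPX8 and HSPB8, are drawn at 3, and the medians of the ER lists lie right of 0 in G2/SCR and left of 0 in SCR/WT, where 4 of the 6 turned positive when all libraries were scaled to the same total.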

How the data were processed

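RNA was sequenced (paired ends) from 8 SH-SY5Y libraries. Per the methods and labels, the authors aligned reads with STAR against hg38, assigned them to FAST DB genes with featureCounts (Subread 1.5.0) and normalized with DESeq2. The deposited values are this signal, normalized counts per gene and library, on a linear scale. How reads that match several genes were treated is not given in the sources used here. The members and lists were chosen with earlier results of these data known.

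The values of each library are whole multiples of 1 step, which gave back whole counts (100% whole within 0.05). In WT replicate 2 the step was near 1 (0.993). Count models (DESeq2 1.42.0, edgeR 4.0.16) were run for G2/SCR only. The design allowed for counts or normalized values. The values were normalized, so limma 3.58.1 (lmFit, eBayes with trend, R 4.3.3) was fitted to log2(value + 1) of the 18947 genes averaging 10 or more, in 1 fit with a mean per line. The fit was also tested on simulated data with 200 changed genes. Genes were named by a rule: all 10 members, and up to 3 genes per ER list (2 in the lists of other compartments) with the largest G2/SCR difference among those called in both G2 comparisons with G2 outside the controls. The 5 nearest genes to HSPA5 and EIF2AK3 were also named, and others are named after their values were seen. A gene that the rule selects is not reported here. A group was taken as at the counting floor when no library exceeded 9 recovered counts. Titles number replicates, but deviations of same-numbered libraries correlated between -0.17 and 0.15, so the numbers do not pair them. Promoters came from RefSeq (GRCh38.p14). Alternatives were other scalings (the same total, TMM), filters, pseudocounts, call rules, count models, blocks and leaving out each library. Differences on this log scale understate changes of low genes, and near-identical pseudogene copies of the 10 genes were not analysed here.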

Additional observations from a re-analysis of the deposited data

How the results depend on the processing

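Of the 6 genes called higher in G2/SCR, 2 were left at a 2-fold limit, and leaving out 1 library gave 5 to 6. Other ER genes called higher there went from 59 to 16 at 2-fold. The 1 called lower went to 0 with a mean of at least 100, an adjusted p of at most 0.05 or the library name number as a block, and leaving out 1 library gave 0 to 1. In G2/WT the same total gave 5 of the 10 genes called higher, 53 other ER genes higher and 2 lower, while 2-fold gave 11 higher and 1 lower and leaving out 1 library 4 to 8 lower. In SCR/WT the same total gave 1 of the 10 genes higher and 0 lower, and 5 other ER genes higher and 1 lower. There 2-fold gave 0 of the 10 genes and 0 other ER genes lower, a mean of at least 100 gave 0 higher, and leaving out 1 library gave 0 to 1 of the 10 genes higher, 1 to 3 other ER genes higher and 8 to 19 lower. At 2-fold the limit itself is stricter. For the rest the cause was not tested. With the replicate block from the titles, 6 of the 10 genes and 59 other ER genes were called higher in G2/SCR, and the 10 genes had the same counts in the other comparisons. With the library name number as a block 5 of the 10 genes and 54 other ER genes were called higher in G2/SCR. The log2 difference of each of the 10 genes kept its sign where it was called, under all alternatives run. ERN1, with 59.3 read pairs in its lowest library, is the gene that depth limits most.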
